A study of Mus musculus with 24 samples.

Results

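The miR-200 and miR-141 family of mouse lung was followed through its 5 guide-strand miRNAs, mmu-miR-200a-3p, mmu-miR-200b-3p, mmu-miR-429-3p, mmu-miR-200c-3p and mmu-miR-141-3p (written without the prefix below). They were taken by name from the small RNA tables of day 14, day 90 and day 180, where all 5 were listed in every table, among 1477 mature miRNAs common to the 3 tables. The irradiated groups were C57BL/6 mice that received 15 Gy of X-rays to the whole thorax, and the control groups were C57BL/6 mice labelled as controls. Both were 6 to 8 weeks old when the groups were formed. Each group holds 4 lung libraries per day, 24 in all, and the labels do not say whether these come from separate animals, so p-values measure the spread between libraries. Each deposited value is a read count of 1 mature miRNA in whole lung, where fewer epithelial cells and less of a miRNA per epithelial cell cannot be told apart.

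The miR-200 family marks epithelial cells. Its best known targets are the mRNAs of Zeb1 and Zeb2, transcription factors that repress E-cadherin, and in cultured epithelial cells the family is lost during the epithelial to mesenchymal transition driven by TGF-beta. A miRNA recognises its targets mainly through its seed, the bases after the first at its 5′ end, so family members with different seeds pair with partly different mRNAs. In the lung the family is carried by airway and alveolar epithelium, and mRNAs were not analysed here.

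The mature sequences show why the family can be split along 2 lines, by seed or by genomic cluster. All 5 members matched a RefSeq entry of GRCm38.p6, and the capitals mark the seed, bases 2 to 8 counted from 1 at the 5′ end.
miR-200a-3p: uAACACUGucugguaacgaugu
miR-141-3p: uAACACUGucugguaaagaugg
miR-200b-3p: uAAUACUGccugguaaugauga
miR-429-3p: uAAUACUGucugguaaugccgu
miR-200c-3p: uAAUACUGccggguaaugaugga
The seed AACACUG belongs to miR-200a-3p and miR-141-3p, and the seed AAUACUG to miR-200b-3p, miR-429-3p and miR-200c-3p. From miR-200a-3p to miR-200b-3p the seeds differ by C4U alone. The closest relatives lie in different clusters, since miR-200a-3p and miR-141-3p differ at 2 positions (C17A, U22G), and miR-200b-3p and miR-200c-3p at U11G and A22G plus 1 extra base at the end of miR-200c-3p. The sources used here do not say how reads matching several members were assigned, so close relatives could share reads, and the values below take the counts as deposited.

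The hairpins of miR-200b, miR-200a and miR-429 lie in that order of transcription on the minus strand of chromosome 4, within 1846 bases (156053905 to 156055750, GRCm38.p6). They overlap the coding gene Ttll10 outside its exons and the noncoding transcript Gm13648, of which miR-429 lies in an exon. The hairpins of miR-200c and miR-141 lie on the minus strand of chromosome 6, within 477 bases (124717914 to 124718390). These overlap Gm15884, annotated as an antisense gene, and the nearest coding gene is Phb2 on the plus strand, 964 bases from miR-141 and 1372 bases from miR-200c. The groups are called the chromosome 4 cluster (miR-200a, miR-200b, miR-429) and the chromosome 6 cluster (miR-200c, miR-141) below.

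Total counts were 2832205 to 3695133 per library, and the 5 members together took 3.28% to 5.88% of them. Irradiated library 1 of day 180 stands apart from the rest: it has the lowest total, its counts have a median Spearman correlation of 0.914 with the other libraries of its day, against 0.940 to 0.962 for those, and it holds the highest family share, 5.88%. In it the endothelial miRNAs miR-126a-3p and miR-126a-5p sum to 57787 CPM (counts scaled by TMM to a common library size), against 37536 to 43140 CPM in the other 3 irradiated libraries of that day. A second library, control 2 of day 14, was rich in miRNAs of stratified epithelia (3285 CPM of miR-203-3p, 731 CPM of miR-205-5p), and it had the highest miR-200b-3p and miR-200c-3p and the lowest miR-429-3p of the 8 libraries of day 14.

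All 5 members were abundant in every library. Over the 24 libraries miR-429-3p was the highest, with a median of 13584 CPM and a range of 10236 to 26247 CPM, followed by miR-200c-3p with a median of 12220 CPM (9269 to 21852). Both ranked between place 14 and place 37 of all miRNAs of their table. The median was 8485 CPM for miR-200a-3p (3687 to 11810), 4053 CPM for miR-200b-3p (1790 to 7403) and 2604 CPM for miR-141-3p (1711 to 4631). The mature forms have 22 or 23 bases, so these levels need no correction for length, although how well each sequence is captured in a library is not known here, and the 3 days were scaled separately. The top 2 were not separated, since miR-429-3p exceeded miR-200c-3p in 16 of 24 libraries. The widest step was that of miR-200a-3p over miR-200b-3p, in 24 of 24 libraries and by a median of 1.13 on the log2 scale. miR-200c-3p exceeded miR-200a-3p in 23 of 24 libraries (median 0.50), and miR-200b-3p exceeded miR-141-3p in 22 of 24 (median 0.57).

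**Figure D1:**
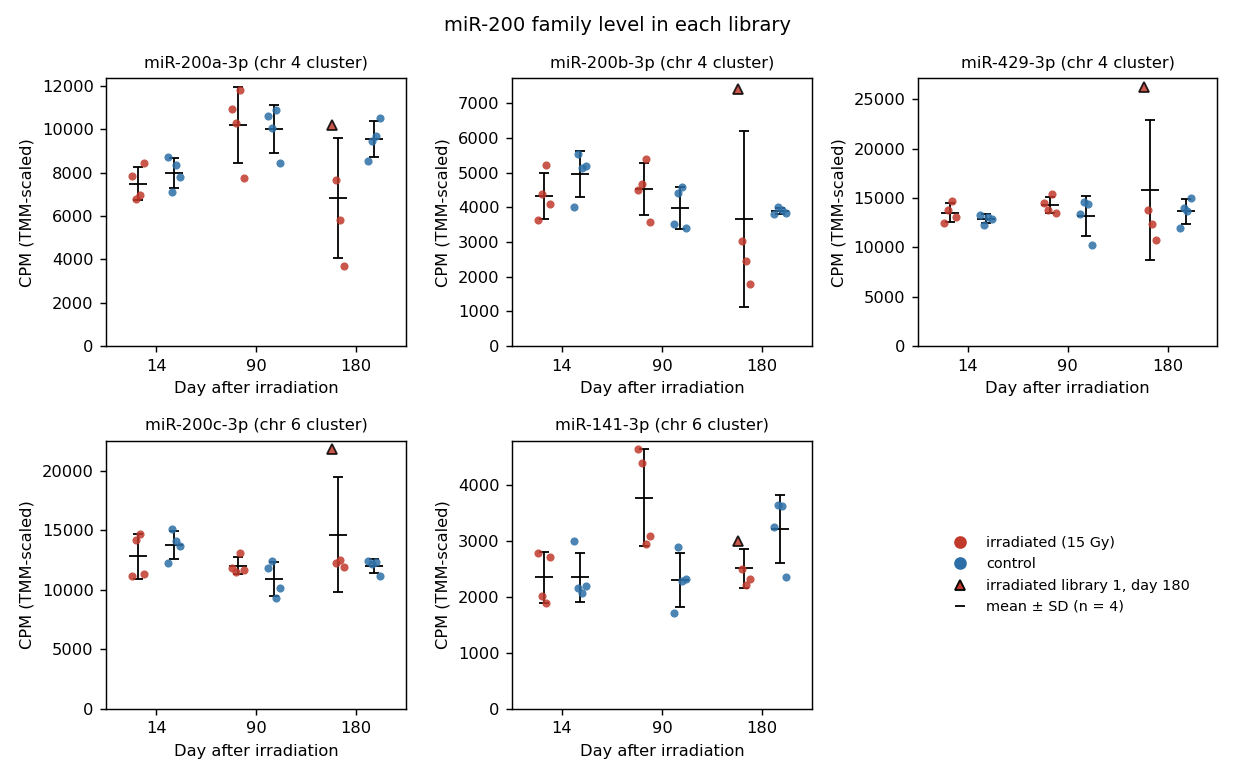
Level of each family member (CPM, TMM-scaled within a day, linear axis from 0) in each library at day 14, 90 and 180, irradiated libraries in red on the left and control libraries in blue on the right of each day, with the mean ± SD of 4 libraries. The triangle is irradiated library 1 of day 180, which on this scale is the highest of its group for all 5 members. miR-141-3p at day 90 is the only panel and day where the groups do not overlap.

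The comparison of irradiated with control lung asks, at each day, whether thoracic irradiation moved this epithelial family. No member passed an adjusted p of 0.05 at any day in edgeR's quasi-likelihood test over all miRNAs of a table. Only miR-141-3p at day 90 had an unadjusted p under 0.05, and DESeq2 and limma-voom also called no member. The largest difference was in miR-141-3p at day 90, which was 1.64-fold higher in irradiated lung without passing, and the next largest was in miR-200a-3p at day 180, which was lower. The median log2 fold change of the 5 members was -0.09, 0.14 and -0.08 at the 3 days in turn, beside 0.01, -0.02 and 0.13 over all miRNAs tested.

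**Figure D2:**
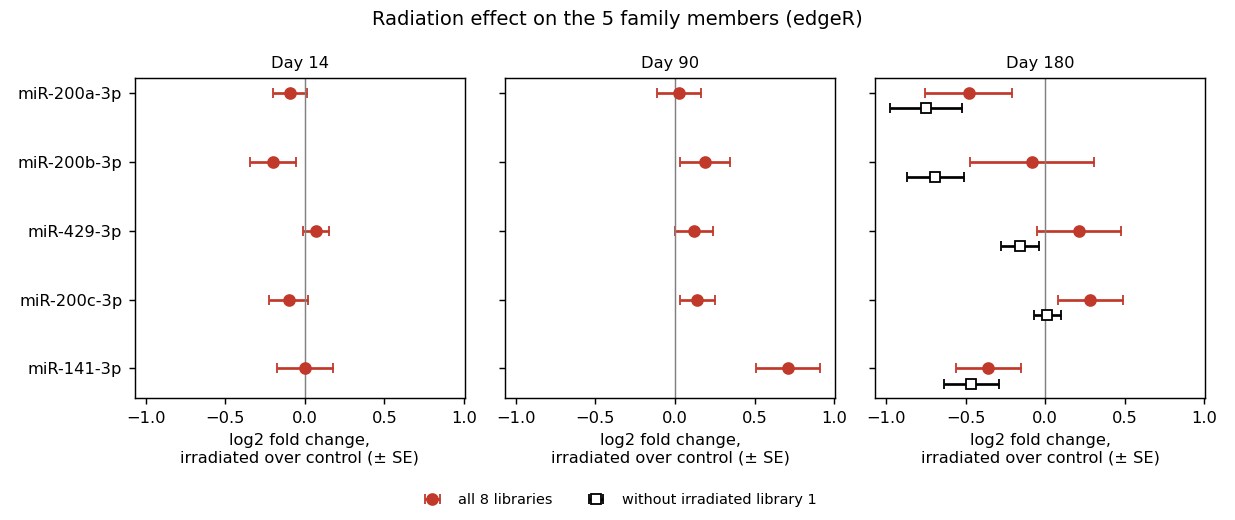
Log2 fold change of irradiated over control lung (horizontal axis, ± SE from edgeR) for the 5 members at each day, with filled circles for all 8 libraries and open squares for day 180 without irradiated library 1. At day 90 only miR-141-3p lies away from 0 (0.71 ± 0.20), and at day 180 leaving out the library moves miR-200b-3p to -0.69 ± 0.18 from a value near 0 (-0.08 ± 0.39).

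At day 14 the irradiated and control libraries overlapped for all 5 members, and 0 of 5 passed. Of the 499 miRNAs tested at this day 0% passed and 5.41% had an unadjusted p under 0.05, and 2.4% had groups that did not overlap. miR-200a-3p had 7819, 6780, 6963 and 8419 CPM in irradiated libraries, against 8716, 7083, 8334 and 7817 CPM in control libraries. miR-200b-3p had 3624, 4388, 5219 and 4096 CPM in irradiated libraries, against 4009, 5550, 5135 and 5188 CPM in control libraries. For both, the highest library was a control and the lowest was irradiated. Their log2 fold changes were -0.09 ± 0.11 (SE) and -0.20 ± 0.14 (adjusted p = 0.919 for each, edgeR). miR-429-3p had 12516, 13810, 14688 and 13085 CPM in irradiated libraries, against 13298, 12253, 13124 and 12891 CPM in control libraries, a log2 fold change of 0.07 ± 0.08. It had the smallest spread of the family, with an SD of 6.94% of the mean in irradiated and 3.54% in control libraries.

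In the chromosome 6 cluster at day 14, miR-200c-3p had 11112, 14201, 14688 and 11287 CPM in irradiated libraries, against 12225, 15109, 14054 and 13672 CPM in control libraries. Its log2 fold change was -0.10 ± 0.12 (adjusted p = 0.919, edgeR). miR-141-3p had 2775, 2022, 1893 and 2707 CPM in irradiated libraries, against 2998, 2149, 2062 and 2189 CPM in control libraries. Irradiated libraries 1 and 4 and control library 1 were high and the other 5 lay together near 2000 CPM, so the group means, 2349 ± 456 and 2349 ± 436 CPM (SD, n = 4 each), were nearly equal. The log2 fold change was -0.00024 ± 0.18. Leaving out any 1 of the 8 libraries gave log2 fold changes of the 5 members between -0.29 and 0.16, and none passed.

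At day 90 miR-141-3p was higher in all 4 irradiated libraries than in any control library, and the other 4 members overlapped. It had 4631, 4387, 2949 and 3091 CPM in irradiated libraries, against 1711, 2892, 2282 and 2322 CPM in control libraries. Irradiated libraries 1 and 2 stood above the other irradiated libraries, control library 1 was the lowest of all, and the gap between the groups was narrow, from 2949 to 2892 CPM. The means were 3765 ± 867 CPM in irradiated and 2301 ± 483 CPM in control lung (SD, n = 4 each), a log2 fold change of 0.71 ± 0.20 (SE). The edgeR p was 0.00549, the 18th smallest of 558, and its adjusted p was 0.17. An exact permutation test of the 4 against 4 libraries, two-sided, gave p = 0.0286, the smallest it can give. Any miRNA whose groups do not overlap gets this value, so it only restates the lack of overlap. Background at this day was 0.358% of miRNAs passing, 12.7% with an unadjusted p under 0.05 and 7.17% with groups that did not overlap (4.84% higher), and 1 of 5 members was without overlap.

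The day 90 difference of miR-141-3p kept its direction in all 17 alternatives tried, with adjusted p from 0.0321 to 0.432. It passed in 1 of them, where every listed miRNA was tested with no filter on low counts (0.0321).

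Its cluster partner miR-200c-3p had 11861, 11502, 13092 and 11667 CPM in irradiated libraries at day 90, against 11842, 12378, 9269 and 10166 CPM in control libraries. The groups overlapped, with 1 irradiated library above all controls, and the log2 fold change was 0.14 ± 0.11 (adjusted p = 0.683, edgeR). miR-200a-3p, which shares the seed of miR-141-3p, had 10917, 10274, 11810 and 7764 CPM in irradiated libraries, against 10609, 10076, 10898 and 8452 CPM in control libraries. Library 4 was the lowest in both groups, and the log2 fold change was 0.03 ± 0.14. miR-200b-3p had 4488, 4673, 5397 and 3578 CPM in irradiated libraries, against 3529, 4419, 4573 and 3396 CPM in control libraries, a log2 fold change of 0.19 ± 0.16. miR-429-3p had 14482, 13790, 15425 and 13501 CPM in irradiated libraries, against 13375, 14651, 14400 and 10236 CPM in control libraries, a log2 fold change of 0.12 ± 0.12. Control library 4 set the lower end of the controls for both, and their edgeR adjusted p-values were 0.685 and 0.753. miR-141-3p had a larger difference than its cluster partner and than its seed partner, whose groups overlapped; whether the members differ from each other in their response was not tested.

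miRNAs typical of other cell types were set beside this difference. At day 90 the 6 ciliated cell miRNAs (miR-34b, miR-34c and miR-449 forms) all had log2 fold changes above 0, where 48% of all miRNAs did. None passed in edgeR and 1 had an unadjusted p under 0.05, beside 12.7% of all miRNAs. Their summed level was 21163 to 23283 CPM in irradiated and 15971 to 20291 CPM in control libraries. The 5 leukocyte miRNAs, 2 of them above 0, summed to 16386 to 22365 CPM in irradiated and 21479 to 31653 CPM in control libraries. Of 9 other epithelial miRNAs 4 were above 0, and their sums overlapped, at 14204 to 17704 CPM in irradiated and 13153 to 17841 CPM in control libraries. The hepatocyte miRNA miR-122-5p had 611 to 1004 CPM in irradiated and 154 to 446 CPM in control libraries. Striated muscle miRNAs, 4 of 4 above 0, summed to 886 to 3799 CPM in irradiated and 333 to 1232 CPM in control libraries. In these other lists none passed in edgeR either. An unadjusted p under 0.05 was found for 2 of 5 leukocyte, 2 of 9 other epithelial and 3 of 4 striated muscle miRNAs, and for miR-122-5p. No miRNA of these lists was at 0 in every library of the day, and their part in the miR-141-3p difference was not tested.

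At day 180 no member passed and all 5 overlapped in CPM when all 8 libraries were used. In CPM, 3 of the 4 irradiated libraries had less miR-200a-3p and less miR-200b-3p than any control. Irradiated library 1 was within the controls for miR-200a-3p and above them for miR-200b-3p. In deposited RPM, a different scaling, all 4 irradiated libraries had less miR-200a-3p than any control. The values were 1879, 1765, 1494 and 902 in irradiated libraries 1 to 4, against 1992, 2259, 2204 and 2348 in control libraries. Over the 552 miRNAs tested 0% passed, 18.3% had an unadjusted p under 0.05 and 12% had groups that did not overlap. miR-200a-3p had 10210, 7636, 5825 and 3687 CPM in irradiated libraries 1 to 4, against 8518, 9441, 9689 and 10534 CPM in control libraries. The means were 6839 ± 2766 and 9545 ± 830 CPM (SD, n = 4 each), with a log2 fold change of -0.48 ± 0.27 (adjusted p = 0.392, edgeR). miR-200b-3p had 7403, 3029, 2460 and 1790 CPM in irradiated libraries 1 to 4, against 3803, 4007, 3922 and 3836 CPM in control libraries. The controls were tightly grouped, with an SD of 2.35% of their mean, against 69.2% in irradiated libraries, and the log2 fold change was -0.08 ± 0.39 (adjusted p = 0.927, edgeR).

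The other 3 members were less spread below the controls at day 180. miR-429-3p had 26247, 13821, 12332 and 10728 CPM in irradiated libraries 1 to 4, against 11934, 14009, 13666 and 14992 CPM in control libraries, a log2 fold change of 0.21 ± 0.26. miR-200c-3p had 21852, 12216, 12533 and 11922 CPM in irradiated libraries 1 to 4, against 12434, 12182, 12308 and 11158 CPM in control libraries, a log2 fold change of 0.28 ± 0.21. Apart from library 1, the irradiated values of both lay close to the controls. miR-141-3p had 2998, 2502, 2218 and 2320 CPM in irradiated libraries 1 to 4, against 3245, 3641, 3616 and 2352 CPM in control libraries, a log2 fold change of -0.36 ± 0.20. Here control library 4 fell among the irradiated libraries and the other 3 controls were above all of them. The edgeR adjusted p-values of these 3 members were 0.694, 0.477 and 0.392.

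Without irradiated library 1, 2 members lay below every control at day 180, and the other 3 overlapped the controls. This library was singled out after its values were seen, its high family share among them. Leaving it out therefore lowers the irradiated means of the members by choice, and the values without it are a description. miR-200a-3p averaged 5716 ± 1976 CPM in the other 3 irradiated libraries (SD, n = 3) and 9545 ± 830 CPM in controls, a log2 fold change of -0.75 ± 0.23 (adjusted p = 0.0971, edgeR). miR-200b-3p averaged 2426 ± 620 CPM and 3892 ± 91.6 CPM in the same groups, a log2 fold change of -0.69 ± 0.18 (adjusted p = 0.0698, edgeR). Both lay below every control, 2 of 5 members, beside 10.6% of the 575 miRNAs tested that did so, 22.6% without overlap in either direction, 25.4% with an unadjusted p under 0.05 and 0% passing. The log2 fold change was -0.46 ± 0.17 for miR-141-3p (adjusted p = 0.156, edgeR), -0.16 ± 0.12 for miR-429-3p and 0.01 ± 0.08 for miR-200c-3p. In irradiated library 1 miR-200b-3p was 3.05 times and miR-429-3p 2.13 times the mean of the other 3 irradiated libraries, while miR-141-3p was 1.28 times that mean. For miR-141-3p this depends on the scaling. In deposited RPM it had 552 in irradiated library 1 and 578, 569 and 568 in irradiated libraries 2 to 4.

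Whether the radiation effect differed between days was tested in 1 fit of all 24 libraries, for 624 miRNAs. No member passed, where 0% of the miRNAs passed in any of the 3 contrasts. The largest difference was again in miR-141-3p, whose log2 effect was 1.08 lower at day 180 than at day 90 (-1.08 ± 0.28, unadjusted p 0.000949, edgeR adjusted p = 0.148), beside 14.6% of miRNAs with an unadjusted p under 0.05. The adjusted p ran from 0.0245 to 0.401 over 29 alternatives, and the lowest, the only one that passed, came from leaving out irradiated library 1 of day 180. From day 14 to day 90 its effect differed by 0.72 ± 0.28 (adjusted p = 0.787, edgeR). For the other members the difference between day 180 and day 90 was from -0.52 (miR-200a-3p) to 0.13 (miR-200c-3p), with adjusted p of 0.418 or more.

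The 2 clusters were compared through the log2 ratio of their summed CPM in each library, chromosome 6 over chromosome 4. The irradiated and control libraries overlapped at every day on this measure. At day 14 the ratio was -0.74 ± 0.11 in irradiated and -0.68 ± 0.11 in control lung (SD, n = 4 each), and at day 90 it was -0.87 ± 0.11 and -1.04 ± 0.24. At day 180 it was -0.82, -0.73, -0.48 and -0.19 in irradiated libraries 1 to 4, against -0.63, -0.80, -0.78 and -1.12 in control libraries. Irradiated libraries 3 and 4 were above all controls and library 1 was within them, with means of -0.56 ± 0.28 and -0.83 ± 0.21, a difference of 0.27 with all libraries and 0.36 without irradiated library 1. The ratio does not depend on how libraries were scaled. These ratios are given with no test, since the members were chosen together.

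The sums behind the ratio moved in different libraries. At day 180 the chromosome 4 cluster had 43859, 24486, 20617 and 16205 CPM in irradiated libraries 1 to 4, against 24254, 27457, 27277 and 29362 CPM in control libraries. The chromosome 6 cluster had 24850, 14717, 14751 and 14242 CPM in irradiated libraries 1 to 4, against 15680, 15823, 15923 and 13509 CPM in control libraries. Irradiated libraries 3 and 4 were low in the chromosome 4 cluster and close to the lowest control in the chromosome 6 cluster, and library 1 was the highest in both. At day 90 the chromosome 6 cluster had 14758 to 16492 CPM in irradiated and 11551 to 15270 CPM in control libraries, and the chromosome 4 cluster 24843 to 32631 and 22084 to 29871 CPM, with overlap in both.

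**Figure D3:**
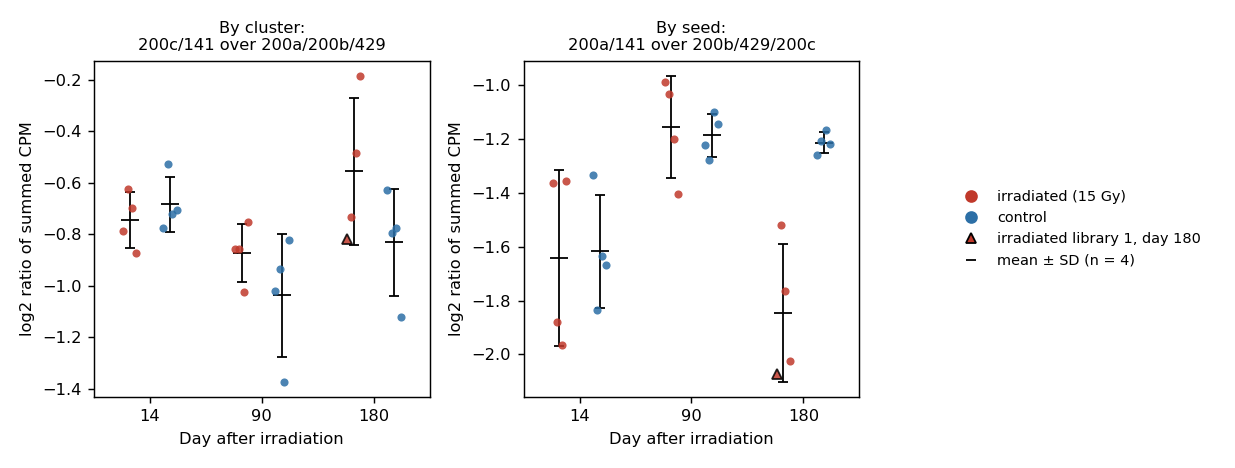
Log2 ratio of summed CPM in each library, on the left the chromosome 6 cluster (miR-200c, miR-141) over the chromosome 4 cluster (miR-200a, miR-200b, miR-429), on the right the seed AACACUG pair (miR-200a, miR-141) over the AAUACUG group (miR-200b, miR-429, miR-200c), irradiated in red left of control in blue, with the mean ± SD of 4 libraries. The cluster ratio overlaps at every day, while the seed ratio at day 180 is -2.07 to -1.52 in irradiated and -1.26 to -1.17 in control libraries.

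Summed by seed, the irradiated and control libraries did not overlap at day 180. The log2 ratio of the AACACUG pair (miR-200a-3p and miR-141-3p) over the AAUACUG group (miR-200b-3p, miR-429-3p and miR-200c-3p) was -2.07, -1.52, -1.76 and -2.02 in irradiated libraries 1 to 4, against -1.26, -1.21, -1.17 and -1.22 in control libraries. All 4 irradiated libraries were below all 4 controls, library 1 included, and the controls varied little. The means were -1.84 ± 0.26 and -1.21 ± 0.04 (SD, n = 4 each), a difference of -0.63, or -0.56 without irradiated library 1. At day 14 the ratio was -1.64 ± 0.33 in irradiated and -1.62 ± 0.21 in control lung, and at day 90 it was -1.16 ± 0.19 and -1.19 ± 0.08, with overlap at both days. The sum of the AAUACUG group is mostly miR-429-3p and miR-200c-3p, and its remaining member, miR-200b-3p, had a log2 fold change close to that of miR-200a-3p without irradiated library 1 (-0.69 and -0.75). The grouping by seed was chosen after the values were known, so it is a description with no test. How often ratios of other miRNAs separate the groups at day 180 was not counted.

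Single pairs of members followed neither grouping throughout. At day 180 the log2 ratio of miR-200a-3p to miR-429-3p, members of the same cluster, was -1.36, -0.86, -1.08 and -1.54 in irradiated libraries 1 to 4, against -0.49, -0.57, -0.50 and -0.51 in control libraries. The log2 ratio of miR-200c-3p to miR-141-3p, also of the same cluster, was 2.87, 2.29, 2.50 and 2.36 in irradiated libraries 1 to 4, against 1.94, 1.74, 1.77 and 2.25 in control libraries. Both pairs had groups without overlap, with mean differences of -0.69 and 0.58, and so had miR-200a-3p over miR-200c-3p, with -0.81. Those 3 pairs, each of unlike seeds, were the ones of 10 without overlap. They share miR-200a-3p or miR-200c-3p, so they are not separate results. Of single miRNAs 12% had groups without overlap at this day, and the share for ratios of other miRNA pairs was not counted. The other 3 pairs of unlike seeds overlapped: miR-200a-3p over miR-200b-3p had a mean difference of -0.27 (-0.08 without irradiated library 1), miR-200b-3p over miR-141-3p of 0.04 (-0.28) and miR-429-3p over miR-141-3p of 0.47 (0.28). Pairs of like seed also differed once that library was left out. The log2 ratio of miR-200b-3p to miR-200c-3p was -1.56, -2.01, -2.35 and -2.74 in irradiated libraries 1 to 4, against -1.71 to -1.54 in control libraries, so that libraries 2 to 4 were below all controls. Its mean difference was -0.54, or -0.74 without irradiated library 1. Libraries 2 to 4 were likewise below all controls for miR-200b-3p over miR-429-3p, with a mean difference of -0.43, or -0.56 without library 1. The log2 ratio of miR-200a-3p to miR-141-3p was 1.36 ± 0.49 in irradiated and 1.59 ± 0.38 in control lung and overlapped, and that of miR-429-3p to miR-200c-3p overlapped too, with a mean difference of -0.11.

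The 5p arms of the same hairpins, which the choice of members did not use, were far less abundant. The median share of the 5p arm in the reads of both arms was 2.22% for miR-200a, 3.80% for miR-200b, 2.04% for miR-141 and 0.248% for miR-200c over 24 libraries. miR-429-5p had 1 read in irradiated and 0 in control libraries of day 14. It had 7 and 0 reads in irradiated and control libraries of day 90, and 4 in each at day 180, too few to compare. No 5p arm passed at any day in edgeR (lowest unadjusted p 0.155). miR-141-5p at day 90 had 64.6, 65.2, 69.6 and 56.6 CPM in irradiated libraries, against 74.7, 54.1, 41.1 and 43.9 CPM in control libraries. Control library 1 was the highest of all, where miR-141-3p was at its lowest, and the log2 fold change was 0.26 ± 0.22 (adjusted p = 0.701, edgeR).

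At day 180 the 3p arm was low relative to the 5p arm in irradiated libraries 2 to 4. The log2 ratio of 3p to 5p reads of miR-200a was 6.23, 5.09, 4.36 and 4.23 in irradiated libraries 1 to 4, against 5.52, 5.42, 5.34 and 5.78 in control libraries. For miR-200b it was 7.91 in irradiated library 1 and 3.87 ± 0.18 in the other 3 (SD, n = 3), against 4.53 ± 0.23 in controls (SD, n = 4). For miR-141 it was 6.08 in irradiated library 1 and 4.84 ± 0.33 in the other 3, against 5.52 ± 0.21 in controls. Library 1 was above all controls and the other 3 were below all controls for these 3 hairpins, and with all 4 libraries the groups overlapped. For miR-141 the gap was very narrow, from 5.20 in irradiated library 2 to 5.21 in control library 4. Library 1 was set aside after its values were seen, and the share of other hairpins that separate in this way was not counted. The ratio of miR-200c was 8.25 ± 0.38 in the 3 libraries and 8.56 ± 0.08 in controls and overlapped. The 5p arm of miR-200a was at 235 ± 44.8 CPM in irradiated libraries 2 to 4 and 210 ± 25.4 CPM in controls, and that of miR-200b at 163 ± 23.4 and 169 ± 23.0 CPM, so the lower ratios there went with lower 3p levels. For miR-141 the 5p arm was at 82.9 ± 14.8 and 69.2 ± 5.21 CPM and the 3p arm at 2347 ± 143 and 3213 ± 602 CPM. Its lower ratio thus went with a lower mean 3p level and a higher mean 5p level. In irradiated library 1 miR-200b had 17935 reads of the 3p arm and 74 of the 5p arm. At day 14 and day 90 all arm ratios overlapped, with mean differences from -0.22 to 0.41.

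**Figure D4:**
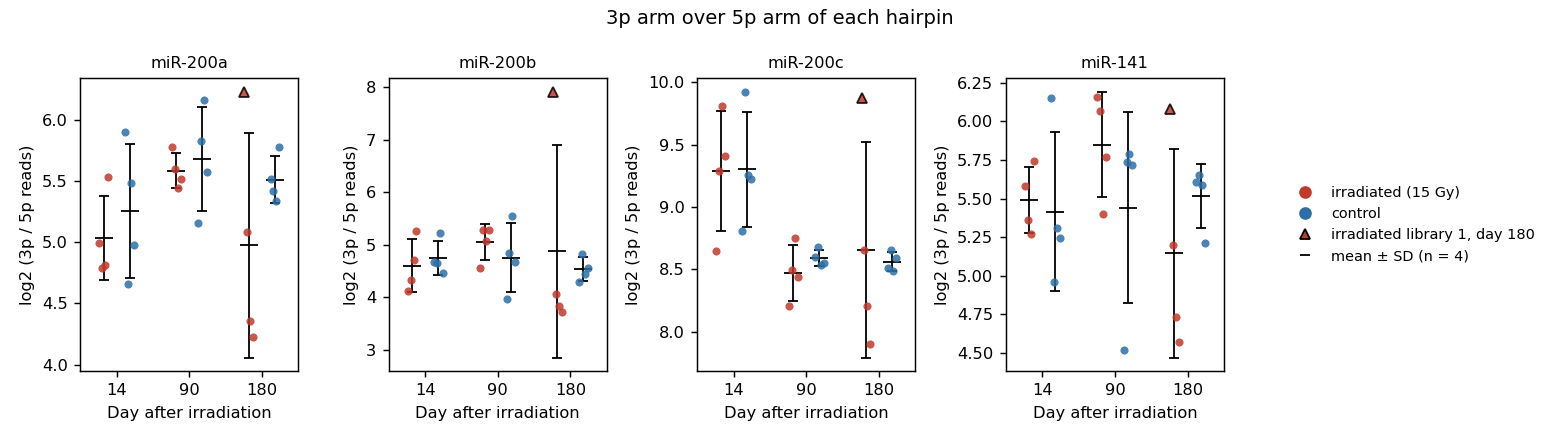
Log2 ratio of 3p to 5p reads of 4 hairpins in each library at day 14, 90 and 180 (prior count 0.5 added to each), irradiated in red left of control in blue, with the mean ± SD of 4 libraries; miR-429 is left out for lack of 5p reads. At day 180 irradiated library 1 (triangle) is the highest library of each panel, 7.91 for miR-200b, and the other 3 irradiated libraries lie below the controls or, for miR-200c, partly among them.

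Across libraries the members did not vary as 1 unit. Same-numbered irradiated and control libraries of day 14 deviated together, so the 8 libraries of that day are not independent. Neither the permutation p-values nor the main edgeR tests take this into account. With the group means removed, the 10 pairs of members had Pearson correlations of log2 CPM from -0.02 to 0.90 over 24 libraries. The highest was between miR-200b-3p and miR-429-3p, of 1 cluster and 1 seed, with r = 0.90 and Spearman's rho = 0.67 (permutation within groups, p = 0.00018, adjusted over the 10 pairs 0.0018; rho 0.00267 and 0.0267). It was 0.62 without the 2 libraries farthest from the median and 0.65 without irradiated library 1 of day 180, and within days it was 0.40, 0.72 and 0.97. miR-200b-3p and miR-200c-3p, of 1 seed but different clusters, had r = 0.80 and rho = 0.63 (adjusted permutation p 0.0196 and 0.043). That correlation was 0.54 without the 2 farthest libraries, 0.44 without irradiated library 1 of day 180, and 0.88, 0.12 and 0.93 within day 14, day 90 and day 180. miR-200a-3p and miR-429-3p had r = 0.80 and rho = 0.54 (adjusted permutation p 0.0196 and 0.043), with 0.49 and 0.66 under the same exclusions and -0.18, 0.69 and 0.88 within days. The remaining pair of the chromosome 4 cluster, miR-200a-3p and miR-200b-3p, had r = 0.75 and rho = 0.27 (adjusted permutation p 0.0975 and 0.59). Under the same exclusions its r was 0.26 and 0.56, and within days it was -0.72, 0.82 and 0.90. Like seeds in different clusters did not always go with a correlation that passed. For miR-429-3p and miR-200c-3p r was 0.74 and rho 0.48 (adjusted permutation p 0.112 and 0.158). For miR-200a-3p and miR-141-3p r was 0.28 and rho 0.21 (adjusted permutation p 0.272 and 0.59).

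miR-141-3p stood apart from its cluster partner. Its correlation with miR-200c-3p was r = -0.02 and rho = -0.13 (permutation p = 0.91 and 0.556), or -0.37 without irradiated library 1 of day 180, and within days it was -0.94, -0.14 and 0.62. At day 180 all 10 pairs were positive in CPM, where irradiated library 1 is the highest of its group for all 5 members. In deposited RPM that library is the lowest of its group for miR-141-3p. Over 24 libraries in RPM, miR-141-3p correlated with the other members at -0.24 (miR-200c-3p) to 0.05 (miR-200a-3p). The values within a day rest on 8 libraries, at day 14 on 4 pairs of them. The correlations with r of 0.74 or more over all libraries are lower without irradiated library 1 of day 180.

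**Figure D5:**
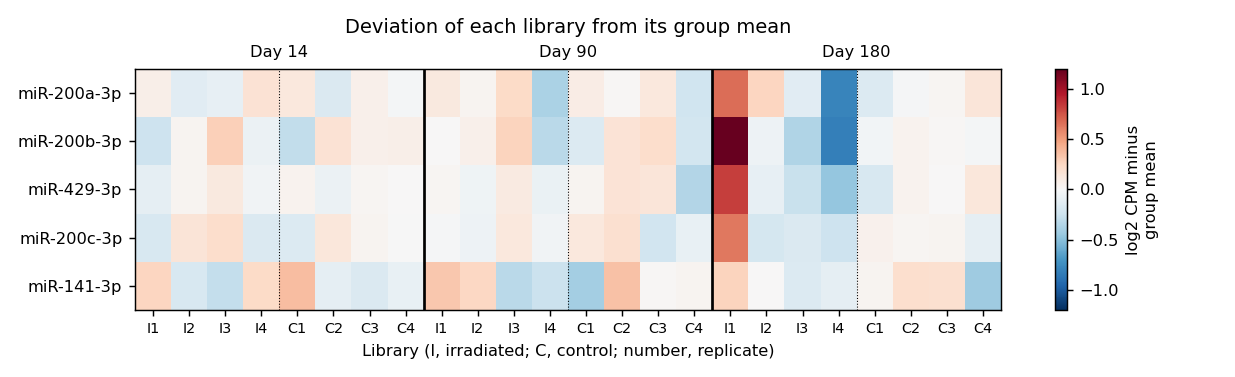
Deviation of log2 CPM from the group mean for each member (rows) in each of the 24 libraries (columns; I irradiated, C control, by replicate number within each day), red above and blue below the mean. Irradiated library 1 of day 180 is above the mean for all 5 members, irradiated library 4 of day 180 below it for all 5, and at day 14 miR-141-3p has the colour of miR-200a-3p and the opposite colour to miR-200b-3p in most columns.

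Among 399 other miRNAs with at least 10 CPM on average, the 5 whose deviations were most like those of the family were miR-676-3p, miR-100-5p, miR-10a-5p, miR-190b-5p and miR-1843a-5p. Their median correlations with the 5 members were 0.84, 0.80, 0.79, 0.78 and 0.77 over 24 libraries. Without irradiated library 1 of day 180 these were 0.41, 0.64, 0.63, 0.21 and 0.41, of which those of miR-100-5p and miR-10a-5p were the highest. All 5 correlated weakly with miR-141-3p, at 0.08 to 0.30. miR-10a-5p averaged 22904 ± 8219 CPM in irradiated and 22249 ± 2138 CPM in control lung at day 180 (SD, n = 4 each), and edgeR's adjusted p for these 5 miRNAs was 0.377 or more at every day.

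Of 14 miRNAs tied to the epithelial to mesenchymal transition and TGF-beta, 0 passed at any day in edgeR, where 1, 1 and 8 of them had an unadjusted p under 0.05 at day 14, 90 and 180, beside 5.41%, 12.7% and 18.3% of all miRNAs. Of the 14, 8 were above 0 at day 14, 7 at day 90 and 7 at day 180 (medians 0.05, 0.03 and 0.09). Over all miRNAs tested, 51.9%, 48% and 58.9% were above 0 at those days. The list sets no direction for its members, so these counts and medians cannot show opposite moves within it. At day 180 its log2 fold changes ran from -0.47 (miR-29c-3p) to 1.19 (miR-155-5p). At day 180 5 of the 14 had groups without overlap, beside the 12% of all miRNAs. Those were miR-21a-5p, which is commonly raised in injured and fibrotic tissue, with a log2 fold change of 0.44 (adjusted p = 0.171, edgeR), miR-155-5p, a miRNA of activated immune cells, with 1.19 (0.259), miR-10b-5p with 0.98 (0.183), miR-222-3p with 0.44 (0.259) and let-7d-5p with -0.25 (0.273). miR-21a-5p averaged 25138 ± 2963 CPM in irradiated and 18553 ± 1220 CPM in control lung (SD, n = 4 each). At day 14 miR-34a-5p, which p53 activates directly, had 21456 ± 4659 CPM in irradiated and 12201 ± 471 CPM in control lung, without overlap (log2 fold change 0.81, edgeR adjusted p = 0.328). These 6 are named because they fell outside the overlap, a choice made after their values were seen. Sums of the endothelial, erythroid and fibroblast lists overlapped between irradiated and control libraries at day 180, with endothelial sums of 37536 to 57787 and 41619 to 46415 CPM and erythroid sums of 19465 to 39199 and 26648 to 32914 CPM. The highest endothelial and erythroid sums were both in irradiated library 1, and their part in the family's values there was not tested.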

How the data were processed

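Small RNA was sequenced from 24 mouse lung libraries, 4 irradiated and 4 control at each of 3 days. Trizol was used to extract total RNA, per the labels' protocols. The submitters' processing notes name Bowtie2, without version or role, and GRCm38.p6 as build. The authors deposited whole-number read counts per mature miRNA, not normalised, in 1 table per day. They also deposited RPM values, which per the values divide each count by a library total about 4 times the sum of the table, used here only as an alternative. The sources used here do not say how reads that match several miRNAs were counted.

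Total counts were 2832205 to 3695133 per library, and errors come from the spread between libraries. No pair of libraries of a day agreed within sampling noise (chi-square per degree of freedom of 25.9 or more). From the counts, each day was fitted separately in edgeR 4.0.16 under R 4.3.3: filterByExpr with a minimum count of 10, TMM scaling, legacy quasi-likelihood F-tests, and Benjamini-Hochberg adjustment over all 499, 558 and 552 miRNAs kept of 1657, 1707 and 1767 listed, with a threshold of 0.05. The SE is the fold change divided by the root of F. Differences between days came from 1 fit of 24 libraries (624 miRNAs). Levels are CPM scaled within a day. Correlations were tested with 100000 permutations within groups. The count tests were tested on simulated data.

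Replicate numbers were checked as pairs: at day 14 the deviations of same-numbered libraries correlated at 0.408, 0.172, 0.465 and 0.411, all above 0.1. Irradiated library 2 correlated more with control library 4 (0.275) than with control library 2. The numbers were read as pairs at day 14 from the data and not from the labels. The main edgeR tests are unpaired, and only the replicate block uses the numbers. The alternatives were RLE and upper-quartile scaling, no filter, a mean of at least 10 CPM, DESeq2 1.42.0, limma-voom (limma 3.58.1), the newer edgeR fit, 1 fit of 24 libraries, a replicate block and leaving out each library. The alternative without irradiated library 1 of day 180 in the correlations was chosen after seeing the data. So was the attention given to the day 180 values without that library. Named miRNAs were the 5 members, the other arms of their hairpins, the 5 miRNAs most like the family in their deviations, and miR-205-5p and miR-203-3p, beside counts for each list. The members and lists were chosen with earlier results of these data known.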

Additional observations from a re-analysis of the deposited data

Results flagged for a closer look

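Each group of 4 libraries was checked for 1 library far from the other 3, by the gap to its nearest neighbour over the group's range. Of 60 groups checked 5 had such a library, where chance gives about 1 in 20. In irradiated lung of day 180 the highest library had 21852 CPM of miR-200c-3p and the other 3 averaged 12224 CPM. In the same group the highest log2 ratio of 3p to 5p reads of miR-200b was 7.91, against a mean of 3.87 in the other 3, and both values belong to irradiated library 1. Among day 14 controls the highest miR-141-3p library had 2998 CPM and the other 3 averaged 2133 CPM. Among day 90 controls the lowest log2 ratio of 3p to 5p reads of miR-141 was 4.52, against a mean of 5.75 in the other 3, in control library 1, which also had the lowest miR-141-3p of that day. Among day 180 controls the lowest such ratio of miR-141 was 5.21, against a mean of 5.62 in the other 3, in control library 4. What set these libraries apart was not tested.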

How the results depend on the processing

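Of 690 alternative values of single members, 33 changed sign and 2 crossed the threshold. Both were of miR-141-3p: at day 90 with no filter (adjusted p = 0.0321), and for day 180 minus 90 without irradiated library 1 of day 180 (adjusted p = 0.0245). The cluster ratios depended on the measure. On the mean of the members' log2 CPM the irradiated ratio at day 90 was -0.38 ± 0.20, against -0.87 ± 0.11 on the sums (SD). The difference between irradiated and control lung was 0.32 there, against 0.16 on the sums. This difference changed sign in 1 alternative, at day 14 on the mean of the members' log2 CPM (0.0184, against -0.0614 on the sums). The groups overlapped at every day on both measures. The day 180 difference in the 3p to 5p ratio changed sign without irradiated library 1 for miR-200b (0.35 with all libraries, -0.66 without) and miR-200c (0.10 and -0.31), and that library makes most of the spread there. Leaving out 1 library also changed the sign of this difference at day 14 for miR-200b (-0.36 to 0.01), miR-200c (-0.19 to 0.20) and miR-141 (-0.08 to 0.32), and at day 90 for miR-200a (-0.27 to 0.07). The counts of miRNAs called by edgeR were less stable. At day 14 (0 called) they were 7 with no filter, 1 with DESeq2 and 1 with all 24 libraries in 1 fit. At day 90 (2 called) they were 5 with upper-quartile scaling, 18 with no filter, 0 with a mean of at least 10 CPM, 19 with DESeq2, 5 with the newer edgeR fit and 0 with 24 libraries. At day 180 (0 called) they were 18 with no filter, 28 with DESeq2, 3 with the newer fit and 32 with 24 libraries. Between days (0 called) DESeq2 called 1 for day 90 minus 14, 3 for day 180 minus 14 and 2 for day 180 minus 90. The causes were not tested.

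A replicate block left 0 calls at each day, against 0, 2 and 0, and changed no call of a member; with the block the effect of miR-200b-3p at day 180 minus 14 was -0.13 and of miR-429-3p at day 180 minus 90 was -0.0379, both reversed, and limma-voom gave -0.16 and -0.0641. At day 90 and day 180 same-numbered libraries did not all correlate above 0.1 (-0.224, 0.355, 0.168 and 0.025 at day 90), so the numbers there name libraries only. miR-141-3p at day 14 (-0.00024) was 0.0043 with RLE, 0.0657 with upper-quartile scaling, 0.02 with a mean of at least 10 CPM and 0.0043 with DESeq2.

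Leaving out 1 library at a time gave 0 to 1 calls at day 14, 0 to 7 at day 90 (7 without control library 4) and 0 to 5 at day 180 (5 without irradiated library 2). Between days it gave 0 to 18 for day 180 minus 14 (18 without irradiated library 2 of day 180) and 0 to 10 for day 180 minus 90 (10 without irradiated library 1 of day 180). The log2 fold changes ran from -0.0682 to 0.16 for miR-141-3p at day 14, from -0.0718 to 0.12 for miR-200a-3p and from -0.0086 to 0.16 for miR-429-3p at day 90, and from -0.69 to 0.17 for miR-200b-3p and from -0.16 to 0.38 for miR-429-3p at day 180. For day 90 minus 14 they ran from -0.0091 to 0.25 for miR-200a-3p and from -0.0710 to 0.16 for miR-429-3p. For day 180 minus 14 they ran from -0.51 to 0.39 for miR-200b-3p and from -0.25 to 0.33 for miR-429-3p. For day 180 minus 90 they ran from -0.90 to 0.0728 for miR-200b-3p, from -0.30 to 0.35 for miR-429-3p and from -0.15 to 0.34 for miR-200c-3p. On deposited RPM the correlation of miR-200b-3p with miR-429-3p was 0.84 and that of miR-200a-3p with miR-200c-3p 0.02, against 0.41 on scaled CPM. Members had 5843 reads or more in every library, so the spread between 4 libraries, not depth, sets the precision.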

Other observations

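Of 9 other epithelial miRNAs none passed at any day in edgeR (3, 2 and 2 had an unadjusted p under 0.05 at day 14, 90 and 180, beside 5.41%, 12.7% and 18.3% of all miRNAs). Groups were without overlap for 1 of the 9 at day 90 and 2 at day 180, beside 7.17% and 12% of all miRNAs. miR-203-3p had 759, 690, 546 and 607 CPM in irradiated libraries 1 to 4 of day 180, against 788, 832, 833 and 775 CPM in control libraries. All 4 irradiated libraries were below the controls, library 1 included, with a log2 fold change of -0.31 (adjusted p = 0.463, edgeR). miR-194-5p averaged 329 ± 25.8 CPM in irradiated and 558 ± 210 CPM in control lung of that day (SD, n = 4 each), with a log2 fold change of -0.76 (adjusted p = 0.259, edgeR). At day 90 miR-96-5p was the member of this list without overlap. Its mean was 1412 ± 520 CPM in irradiated lung, against 911 ± 86.9 CPM in control lung (SD, n = 4 each; log2 fold change 0.63, adjusted p = 0.292, edgeR). miR-194-5p and miR-96-5p are named after their values were seen.

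miR-205-5p had 21.3 to 38.8 CPM in irradiated libraries of day 14, against 61.2, 731, 37.5 and 30.1 CPM in control libraries 1 to 4. In control library 2, where it was at 731 CPM, the family members had 7083 (miR-200a-3p), 5550 (miR-200b-3p), 12253 (miR-429-3p), 15109 (miR-200c-3p) and 2149 CPM (miR-141-3p).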
